A study of Mus musculus with 10 samples.

Results

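Platelets turn arachidonic acid of their membranes into short-lived lipid signals. The 7 genes described here encode enzymes of that conversion and, in the case of Alox5ap, a membrane protein that hands arachidonate to a lipoxygenase. They are Pla2g4a, Ptgs1, Ptgs2, Tbxas1, Alox12, Alox5ap and Ltc4s, chosen by name for their role in arachidonate release and in the cyclooxygenase and lipoxygenase branches, and all 7 are among the 23420 genes of the deposited count table. RNA was sequenced from platelets, small blood cells without a nucleus that bud from megakaryocytes, in 5 libraries of Tomato+ platelets and 5 libraries of Tomato- platelets. Both fractions were sorted from peripheral blood of adult mice, and Tomato is a red fluorescent protein. The labels used here name neither the gene that drives it nor the mouse strain, and they do not tie libraries to single animals, so every p-value rests on a spread that may be technical.

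Cytosolic phospholipase A2, encoded by Pla2g4a, frees arachidonate from membrane phospholipids. The cyclooxygenases encoded by Ptgs1, the constitutive form, and Ptgs2, the form induced by many stimuli, convert it to the endoperoxide from which thromboxane synthase, encoded by Tbxas1, makes thromboxane, the platelet's own activating signal and the reason low-dose aspirin inhibits platelets. Alox12 encodes the platelet-type lipoxygenase, whereas Alox5ap, which presents arachidonate to another lipoxygenase, and Ltc4s, which attaches glutathione, belong to leukotriene synthesis, best known from myeloid and mast cells.

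Of the 7 genes, 5 had a count in some library and 2 had none. Alox12 and Ptgs1 were counted in all 10 libraries, Tbxas1 and Alox5ap in 8 each and Pla2g4a in 4, while Ptgs2 and Ltc4s had 0 counts in all 10. The sequences of the 250 bases before the RefSeq transcription start (GRCm38.p6, gene strand) are shown for the 2 cyclooxygenase genes, 1 with counts in every library and 1 with none, and for Alox12, the most abundant member. Capitals mark GGGCGG, the core of the GC box, searched on both strands. None of the 3 windows held TATAAA on the gene strand. Of the ETS motif, only the forms CCGGAA and CAGGAA were searched, on both strands, and neither was found in any of the 3 windows. Nor was a GATA motif found on either strand, which was spelled AGATAA in its first form, TGATAA in the second form, AGATAG in the third form and TGATAG in the fourth form.
Ptgs1 promoter, chr2:36230176-36230425, plus strand: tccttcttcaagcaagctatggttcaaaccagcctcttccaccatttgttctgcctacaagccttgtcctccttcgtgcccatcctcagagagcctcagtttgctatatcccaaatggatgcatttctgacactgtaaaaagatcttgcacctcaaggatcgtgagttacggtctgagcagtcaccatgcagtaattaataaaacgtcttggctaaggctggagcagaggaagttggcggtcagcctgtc
Ptgs2 promoter, chr1:150099781-150100030, plus strand: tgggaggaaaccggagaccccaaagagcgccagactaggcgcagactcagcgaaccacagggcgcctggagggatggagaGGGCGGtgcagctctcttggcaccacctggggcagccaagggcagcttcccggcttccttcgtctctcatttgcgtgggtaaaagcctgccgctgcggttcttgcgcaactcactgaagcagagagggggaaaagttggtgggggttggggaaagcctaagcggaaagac
Alox12 promoter, chr11:70255371-70255620, minus strand: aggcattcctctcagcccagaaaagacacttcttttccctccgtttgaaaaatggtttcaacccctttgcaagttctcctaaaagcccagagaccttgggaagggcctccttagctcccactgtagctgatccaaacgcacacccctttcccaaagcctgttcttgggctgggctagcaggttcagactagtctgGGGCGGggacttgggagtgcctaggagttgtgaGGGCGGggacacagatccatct
The Ptgs2 window held 1 GC box, the Alox12 window 2 and the Ptgs1 window 0. GC content was 48.0% for Ptgs1, 61.6% for Ptgs2 and 54.0% for Alox12. Windows of other members, not shown, did hold some of these motifs. The Tbxas1 window held 1 TATAAA, the Ltc4s window 1 ETS motif and 1 Pla2g4a window 2 GATA motifs, while another Pla2g4a window held none. Among all 32851 windows of the same length, 32.7% held GGGCGG, 26.5% a GATA motif, 35.1% an ETS motif and 7.59% TATAAA.

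Total counts ran from 6.51 to 16.2 M (M, 1000000 counts) in Tomato+ and from 5.41 to 10.6 M in Tomato- libraries, and detected genes from 1118 to 2450 in Tomato+ and from 807 to 2430 in Tomato-. Replicates 1, 2 and 5 of Tomato- had under 1000 detected genes. All 10 listed platelet markers were counted in every library, with 49672 to 64174 counts per 1000000 counts (CPM) in sum in Tomato+ and 50592 to 66776 CPM in Tomato-, led by the chemokine genes Ppbp and Pf4. Among 1016 genes tested with edgeR's quasi-likelihood test, 0 passed at an adjusted p under 0.05, a background share of 0%, and 9 (0.886%) had an unadjusted p under 0.05. DESeq2 called 218 of 1710 genes (12.7%) and limma voom 2 of 1016 (0.197%), and no member was among them.

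**Figure D1:**
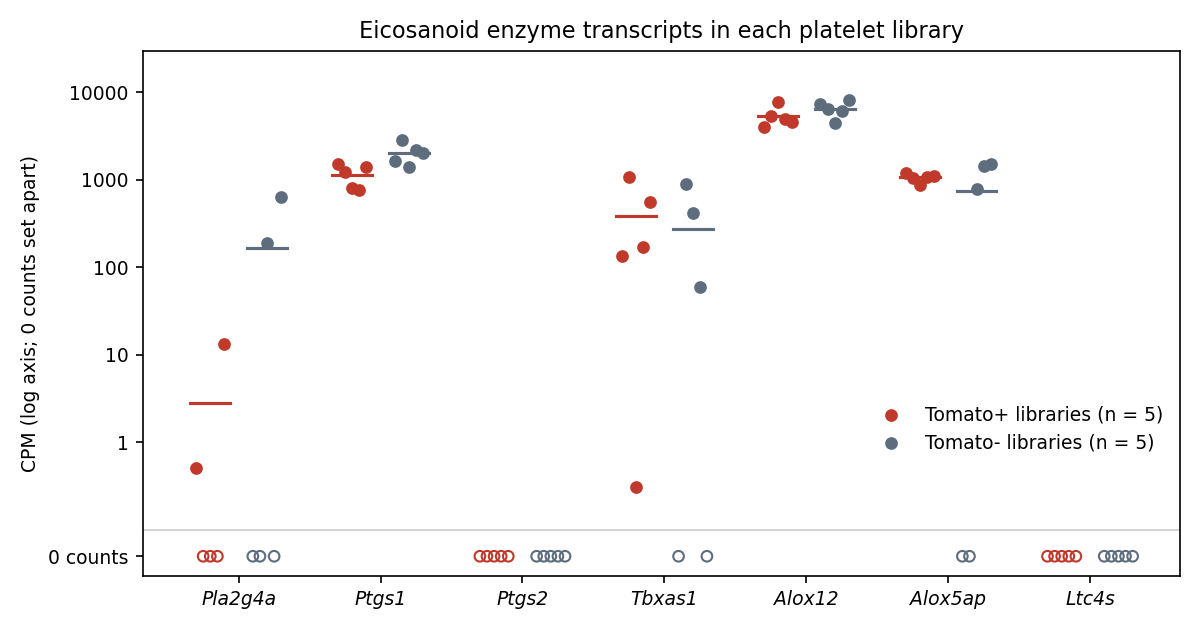
CPM of each of the 7 genes in each library, Tomato+ left of Tomato-, on a log axis; filled points are single libraries, open points are libraries with 0 counts, and bars are group means over 5 libraries. Alox12 lies between 4036 and 8145 CPM throughout, Ptgs1 lies mostly lower in Tomato+ (mean 1144 CPM) than in Tomato- (mean 2041 CPM), and Ptgs2 and Ltc4s are at 0.

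Pla2g4a (chromosome 1, 149829618 to 149961290, minus strand, GRCm38), the gene of arachidonate release, had counts in 4 of 10 libraries. In Tomato+ it had 0.513 CPM in replicate 1, from 6 reads, and 13.4 CPM in replicate 5, with 0 counts in the other 3 libraries. In Tomato- it had 188 CPM in replicate 3 and 640 CPM in replicate 5, again with 0 counts in the other 3. The high values were both in Tomato-, the ranges of the groups overlapped at 0, and the gene did not pass edgeR's expression filter and was not tested there. DESeq2, which kept it, gave a log2 fold change of -5.90 (SE 2.89, adjusted p = 0.271). Of 681 genes with a mean within 2-fold of that of Pla2g4a, 2.06% had a count in every library and the median gene had counts in 5, so such gaps were common at this level.

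Ptgs1 (chromosome 2, 36230426 to 36252272, plus strand), the cyclooxygenase that aspirin blocks in platelets, was the only one of the 2 cyclooxygenase genes with counts. In Tomato+ it had 1505, 1233, 817, 761 and 1403 CPM in replicates 1 to 5. In Tomato- it had 1656, 2878, 1416, 2207 and 2051 CPM. The groups overlapped through a single library, since Tomato- replicate 3 lay below Tomato+ replicate 1 and the other 4 Tomato- libraries lay above every Tomato+ library. Means were 1144 ± 339 CPM in Tomato+ and 2041 ± 563 CPM in Tomato- (SD, n = 5 each).

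The log2 fold change of Ptgs1 was -0.59 (SE 0.41, 95% interval -1.45 to 0.28), which did not pass (edgeR adjusted p = 0.9996, unadjusted p = 0.169), and 43 of the 1016 genes had a smaller p. This value is on the TMM scale, on which the median gene lay at 0.21. With scaling by total counts the median was -0.03, and Ptgs1 had a log2 fold change of -0.84 (edgeR unadjusted p = 0.0451, adjusted p = 0.999977). Among the 225 genes with 10 counts in every library it had -0.77 (edgeR unadjusted p = 0.0347, adjusted p = 0.618). The estimate was below 0 in all 18 alternative settings, between -0.84 and -0.48, and passed in none. The interval includes a 2-fold lower level in Tomato+, so it does not show that Ptgs1 was alike in both fractions.

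Ptgs2 (chromosome 1, 150100031 to 150108227, plus strand) lies 138.7 kb from Pla2g4a and had 0 counts in all 10 libraries. A count of 0 allows up to 0.185 to 0.461 CPM in Tomato+ libraries and 0.283 to 0.554 CPM in Tomato- libraries, taking 3 counts as the limit, which covers counting error only. Per kb of exon and against that limit, Ptgs1 was at least 2090-fold higher than Ptgs2 in each Tomato+ library and at least 4363-fold higher in each Tomato- library. Other members had 0 counts in some libraries and over 100 CPM in others, far beyond counting error, so no upper bound on Ptgs2 in the platelets follows from them.

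Tbxas1 (chromosome 6, 38875404 to 39084585, plus strand), the thromboxane synthase gene that acts on the product of Ptgs1, varied most among the members that were tested. In Tomato+ it had 136, 1090, 0.307, 169 and 563 CPM in replicates 1 to 5, where the value of replicate 3 came from 2 reads. In Tomato- it had 893, 419 and 60.0 CPM in replicates 2, 3 and 4 and 0 counts in replicates 1 and 5. High and low libraries occurred in both groups, and the groups overlapped over most of their range. The log2 fold change was 0.86 (SE 2.20, 95% interval -3.80 to 5.52, edgeR adjusted p = 0.9996), an interval too wide to bound a difference in either direction, and without Tomato+ replicate 2 it was -0.13. In limma voom it was 3.86 (adjusted p = 0.848). Of 370 genes with a mean within 2-fold of that of Tbxas1, 15.9% were counted in every library.

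Alox12 (chromosome 11, 70241457 to 70255353, minus strand) was the most abundant member and the 22nd most abundant gene of the table by its mean over all libraries. In Tomato+ it had 4036, 5387, 7779, 5029 and 4626 CPM in replicates 1 to 5. In Tomato- it had 7292, 6430, 4518, 6186 and 8145 CPM. Tomato+ replicate 3 stood among the high Tomato- libraries and Tomato- replicate 3 among the Tomato+ libraries, so the groups overlapped. The lipoxygenase gene held 0.537 ± 0.144% of a Tomato+ library's counts, against 0.651 ± 0.136% of a Tomato- library's (SD, n = 5 each).

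The log2 fold change of Alox12 was -0.02 (SE 0.23, edgeR adjusted p = 0.9996). Its 95% interval of -0.51 to 0.48 is the narrowest of the 4 tested members and leaves a 2-fold difference in either direction outside, on the TMM scale. Without the expression filter (interval -0.94 to 1.10) the bound was lost for a higher level in Tomato+ only. In DESeq2, where the SE was 1.37, it was lost in both directions. The sign of so small an estimate turned in 6 of 18 alternative settings, within -0.28 to 0.08. The level was as steady as is usual for its abundance, since the coefficient of variation over all 10 libraries was 24.4%, against a median of 25.2% over 41 genes with a mean within 2-fold.

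Alox5ap (chromosome 5, 149264767 to 149288153, plus strand), the membrane protein that hands arachidonate to the lipoxygenase of the leukotriene branch, was even across Tomato+ and present or absent in Tomato-. In Tomato+ it had 1205, 1058, 880, 1083 and 1114 CPM in replicates 1 to 5, a coefficient of variation of 11.2%. In Tomato- it had 789, 1434 and 1525 CPM in replicates 3, 4 and 5, and 0 counts in replicates 1 and 2. The 3 Tomato- libraries with counts enclosed the range of Tomato+, and the 2 without were the low ones. Those 2 libraries had 902 and 978 detected genes, but Tomato- replicate 5, which had the highest Alox5ap value, had the fewest detected genes of all libraries, 807. The part of library quality in these zeros was not tested.

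Alox5ap had a log2 fold change of 0.64 (SE 1.55, 95% interval -2.65 to 3.93, edgeR adjusted p = 0.9996). Without the 3 libraries with under 1000 detected genes it was -0.05. In limma voom it was 5.89 (adjusted p = 0.666). Of 205 genes with a mean within 2-fold of that of Alox5ap, 64.4% were counted in every library.

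Ltc4s (chromosome 11, 50236461 to 50238616, minus strand), the enzyme that completes the first cysteinyl leukotriene, had 0 counts in all 10 libraries, with the same limits as Ptgs2. In the 8 libraries with Alox5ap counts, Alox5ap per kb of exon was at least 1362-fold higher than the limit for Ltc4s in each Tomato+ library and at least 1964-fold higher in each of the 3 Tomato- libraries. That limit covers counting error only, so, as for Ptgs2, it sets no upper bound on Ltc4s in the platelets. Exons of Ptgs1, Tbxas1, Alox5ap and Ltc4s overlap a predicted gene on the opposite strand in the GENCODE annotation. No source used here gives the strand setting of the counts, so reads of such overlaps cannot be told apart.

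Levels of different genes were compared per kb of exon, which changed the order of the members. Alox12 led in both groups, at 1315 ± 352 CPM per kb in Tomato+ and 1595 ± 332 CPM per kb in Tomato- (SD, n = 5 each), and it was above every other member in each library. Alox5ap followed in Tomato+ at 752 ± 83.9 CPM per kb, above Ptgs1 at 295 ± 87.2 CPM per kb in 5 of 5 libraries. In Tomato- the pair did not differ beyond the spread, at 528 ± 522 CPM per kb for Alox5ap and 526 ± 145 CPM per kb for Ptgs1, with Alox5ap above in 3 of 5 libraries. Tbxas1 stood at 43.1 ± 48.7 CPM per kb in Tomato+ and 30.2 ± 42.6 CPM per kb in Tomato-, and Pla2g4a at 0.436 ± 0.931 CPM per kb in Tomato+ and 25.9 ± 43.4 CPM per kb in Tomato-, so the order of these 2 is not separated from their spread in Tomato-. With the longest transcript in place of all exons, Alox5ap was again above Ptgs1 in 5 of 5 Tomato+ and 3 of 5 Tomato- libraries.

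**Figure D2:**
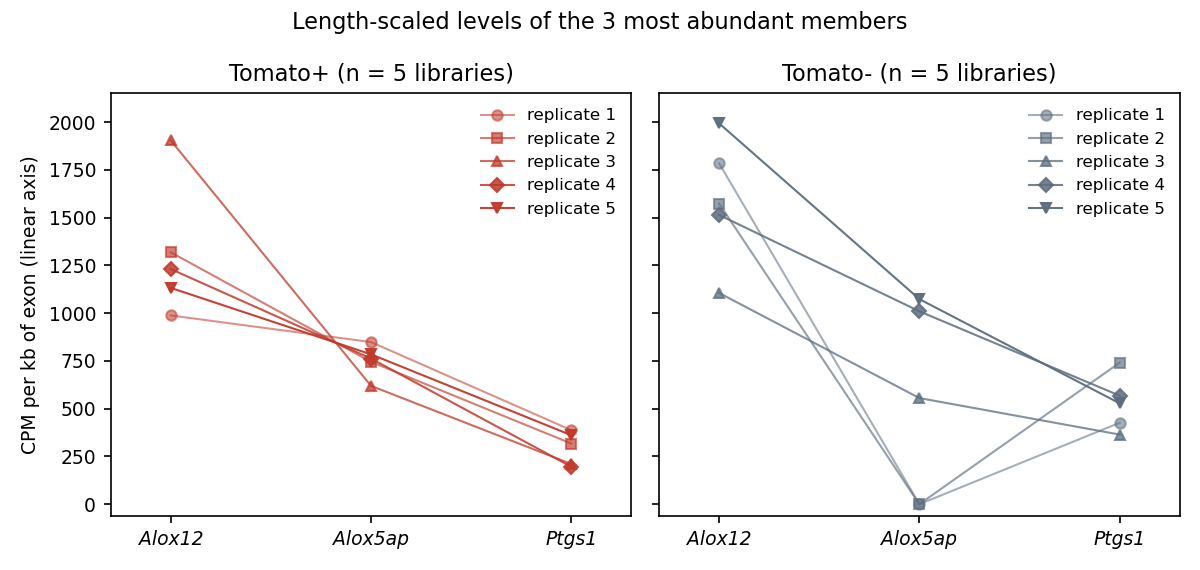
CPM per kb of exon of Alox12, Alox5ap and Ptgs1 on a linear axis, Tomato+ in the left and Tomato- in the right panel; each line joins the 3 genes of 1 library. All 5 Tomato+ lines fall from Alox12 over Alox5ap to Ptgs1, whereas 2 Tomato- lines reach 0 at Alox5ap.

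Ratios within a library do not depend on how libraries are scaled, and both below were chosen after the values were seen and are given without a test. Alox5ap over Ptgs1, per kb, ran from 2.17 to 3.89 in Tomato+ and from 0 to 2.03 in Tomato-, so the groups did not overlap. The same lack of overlap, with Tomato+ higher, was found for 3.45% of the 1015 other tested genes set over Ptgs1. Alox12 over Ptgs1 ran from 2.55 to 9.05 (median 4.15) in Tomato+ and from 2.12 to 4.19 (median 3.03) in Tomato-, with overlap. By CPM itself, 0 of the 4 tested members had groups that did not overlap, against 0.591% of all tested genes. Together the 7 genes took 0.688 to 0.948% of the counts of Tomato+ libraries and 0.733 to 1.24% of those of Tomato- libraries.

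**Figure D3:**
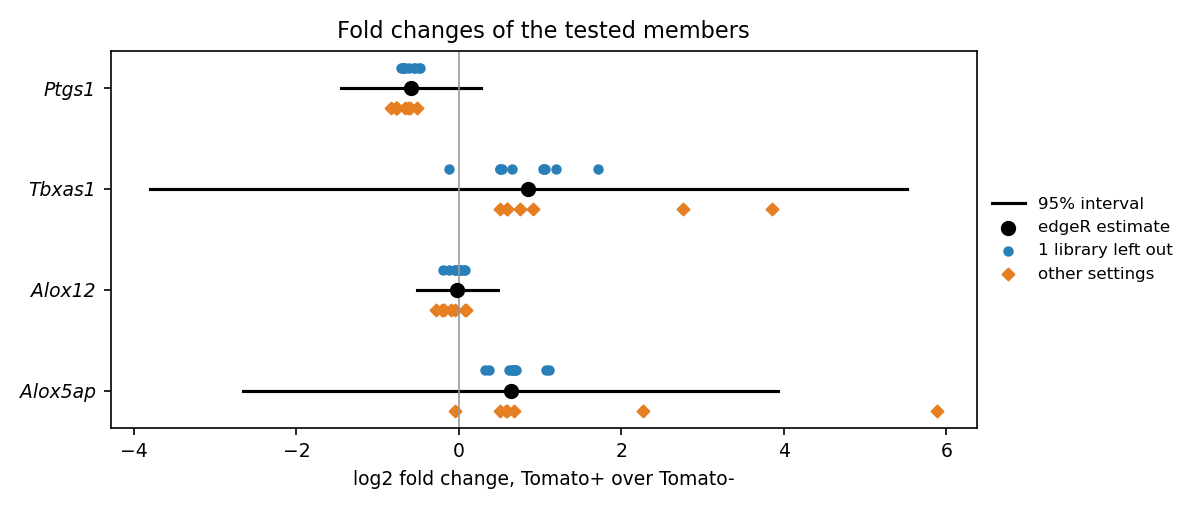
Log2 fold changes, Tomato+ over Tomato-, of the 4 members tested: black points and lines are the edgeR estimates with 95% intervals, blue points are estimates with 1 library left out, and orange diamonds are the other settings. All 4 intervals include 0, those of Tbxas1 and Alox5ap are several times wider than those of Ptgs1 and Alox12, and each estimate of Ptgs1 lies below 0.

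Of the 4 tested members, 2 were estimated higher in Tomato+ and 2 lower, with a median log2 fold change of 0.31, against 58.3% of all tested genes with a higher estimate and a median of 0.21. None passed. Ptgs1 and Alox12, the members counted in every library, moved separately, with a Pearson r of 0.20 between their log2(CPM + 1) values over 10 libraries (Spearman rho 0.27). Among the 216 other genes with 10 counts in every library that are not predicted gene models, the one most like Ptgs1 was Nptn, which encodes the adhesion protein neuroplastin (r = 0.87, rho = 0.82), followed by Rnasek (r = 0.83, rho = 0.71) and Ywhah (r = 0.83, rho = 0.83). Without the 2 libraries farthest from the Ptgs1 median, r was 0.85 for Nptn, 0.76 for Rnasek and 0.59 for Ywhah. Those most like Alox12 were Tpi1, the triosephosphate isomerase of glycolysis (r = 0.76, rho = 0.81), Pcmt1 (r = 0.67, rho = 0.62) and Hmgb1 (r = 0.67, rho = 0.61), and without the 2 farthest libraries r was 0.62, 0.88 and 0.66 in this order. These genes are the highest of many and share libraries and totals with the members, so r is a description of likeness alone.

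Other genes of the pathway were sparse. Of 77 such genes, 24 were counted in at least 1 library and 53 in none, a share of zeros below the 80.0% of all genes of the table. Only 8 were tested, of which 6 were estimated higher and 2 lower in Tomato+ (5 higher with scaling by total counts, where 48.6% of all tested genes were), with a median log2 fold change of 0.23, and 0 passed in edgeR at an adjusted p under 0.05 or in limma voom. DESeq2 called 2 of the 24 pathway genes with any count, Pla2g10 and Mknk1, each with counts in 2 libraries, both Tomato+. Over all genes it called 218, of 4692 with any count and 1710 with an adjusted p. The 12.7% given above is a share of the latter, so it is not set against these 24 genes.

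Among other phospholipases, the secreted Pla2g12a was the steadiest source of counts, averaging 447 ± 75.4 CPM in Tomato+ against 257 ± 177 CPM in Tomato- (SD, n = 5 each), where replicate 1 had 0 counts and the other 4 had 210 to 490 CPM. Pla2g12a had a log2 fold change of 1.05 (SE 1.67, edgeR adjusted p = 0.9996). The secreted Pla2g10 had 95.2 and 76.0 CPM in Tomato+ replicates 4 and 5 and no count elsewhere. Pla2g16 had 23.1 to 101 CPM in 3 Tomato+ libraries and 146 CPM in Tomato- replicate 4 alone.

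Of the genes that return arachidonate to phospholipids, Mboat7, an acyltransferase for phosphatidylinositol, was counted in 9 libraries, averaging 338 ± 130 CPM in Tomato+ against 254 ± 262 CPM in Tomato- (0 counts in replicate 5). Acsl4, which activates arachidonate with coenzyme A, had 126 CPM in Tomato+ replicate 1 and 0.946 CPM in Tomato- replicate 3 alone. Lpcat3 had counts in Tomato- replicate 4 alone, at 35.8 CPM.

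Prostaglandin synthases downstream of cyclooxygenase were nearly without counts. Of 9 listed genes only Ptges3, a cochaperone also described as a prostaglandin E synthase, had any, up to 1.74 CPM in Tomato+ and 2.59 CPM in Tomato-. The other lipoxygenases and leukotriene enzymes gave a like picture: 13 of 15 had 0 counts, among them Alox5, the partner of Alox5ap, and Lta4h, both named after their values were seen. The exceptions were the glutathione peroxidases, which reduce the hydroperoxides that lipoxygenases make. Gpx4 averaged 1646 ± 258 CPM in Tomato+ against 1731 ± 270 CPM in Tomato-. Gpx1 averaged 798 ± 265 CPM in Tomato+ against 518 ± 310 CPM in Tomato-, where replicate 2 had 2.001 CPM. Neither passed (log2 fold changes 0.15, SE 0.38, and 0.81, SE 1.08).

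Hpgd, which inactivates prostaglandins, had 303 and 13.0 CPM in Tomato+ replicates 1 and 5 and 0 counts in the other 8 libraries. Of 15 receptor genes, 11 had 0 counts, among them the thromboxane receptor gene Tbxa2r, named after its values were seen. As stated for Ptgs2 and Ltc4s, 0 counts set no upper bound in the platelets, which holds for Tbxa2r, Alox5 and Lta4h as well. The leukotriene receptor gene Cysltr2 had 0.922 to 60.1 CPM in 4 Tomato+ libraries, and values of 160 and 38.5 CPM stood in Tomato- replicates 3 and 4. Ptgir, the prostacyclin receptor gene, had 290 and 32.7 CPM in Tomato+ replicates 2 and 5 and 46.9 CPM in Tomato- replicate 4. Ltb4r1 had 1.32 and 9.44 CPM in Tomato- replicates 3 and 4 and no count in Tomato+.

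Of 4 transporter genes 3 had counts, with Abcc4, an exporter of cyclic nucleotides and prostanoids, at 96.2 CPM in Tomato+ replicate 5 and at 146 and 105 CPM in Tomato- replicates 3 and 4. Abcc1 (152 CPM in Tomato- replicate 3) and Slco3a1 (0.755 CPM in Tomato- replicate 4) had counts in 1 library each. Of the kinases that act on cytosolic phospholipase A2, Mapk14 averaged 162 ± 225 CPM in Tomato+ against 122 ± 178 CPM in Tomato- (SD, n = 5 each). Mapk3 averaged 73.8 ± 110 CPM in Tomato+ against 159 ± 179 CPM in Tomato-. SDs exceeded the means in all 4 cases, and neither kinase gene passed.

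**Figure D4:**
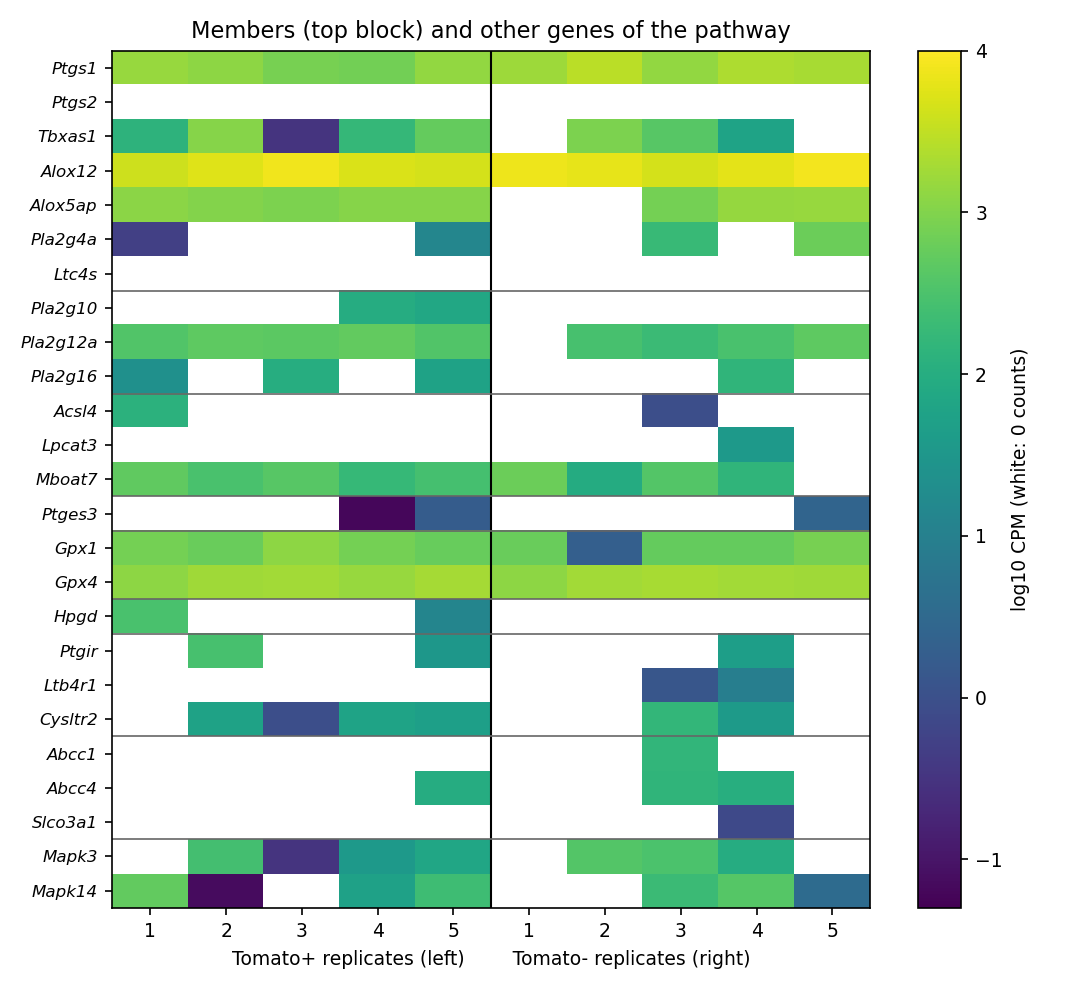
Log10 CPM of the 7 members (top block) and the other pathway genes described, 1 row per gene and 1 column per library, Tomato+ left and Tomato- right of the black line; white cells are 0 counts. Alox12, Ptgs1, Gpx1 and Gpx4 are filled in all 10 columns, whereas most other rows are filled in a few.

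Neutrophils, monocytes and mast cells also express several of these enzymes, and their markers were read beside the members. Of 10 neutrophil markers, 1 had any count, S100a9 at 240 CPM in Tomato+ replicate 3, so their sum ran from 0 to 240 CPM in Tomato+ and was 0 in Tomato-. Of 10 markers of eosinophils, basophils and mast cells only Gata2, a gene of early megakaryocytes as well, had counts, with sums of 0 to 75.1 CPM in Tomato+ and 0 to 76.8 CPM in Tomato-, and Kit, Cpa3 and Fcer1a were at 0. Of 10 monocyte and macrophage markers 4 had counts, with sums of 6256 to 8692 CPM in Tomato+ and 5881 to 9029 CPM in Tomato-, nearly all from Lyz2, while Csf1r, Ccr2 and Cd68 were at 0. In B cell markers only Cd37 and in T and NK cell markers only Nkg7 had counts, and red cell markers summed to 1045 to 1805 CPM in Tomato+ and 47.9 to 4641 CPM in Tomato-, led by Bsg and the haemoglobin row Beta-s.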

How the data were processed

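Per the labels' protocols, complementary DNA of sorted platelets was made by Smart-seq+ from polyadenylated RNA, followed by Nextera XT libraries. The 1 deposited table holds the authors' raw read counts by gene symbol in 10 libraries, without normalization. Trimmomatic, FastQC, STAR, featureCounts and the build mm10 are named, without versions, per the submitters' processing notes. No source used here gives the annotation or the strand setting. The counts carry no molecular identifiers, so reads are not independent molecules, and limits from counts cover counting error only.

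Depth ran from 5.41 to 16.2 M (M, 1000000 counts) per library. CPM are counts per 1000000 counts of all rows of a library. All 45 pairs of libraries differed beyond counting noise (chi-square per degree of freedom of 510 or more). The whole table was fitted by edgeR 4.0.16 under R 4.3.3 (robust quasi-likelihood test with TMM factors and the default filter with minimum count 10 and minimum total 15, 94.7% of counts kept, Benjamini-Hochberg at 0.05), with group as the sole term. SEs are the log2 fold change divided by the root of its F statistic. The fit was also run on simulated counts. The outcome required there concerned only large changes with little spread between libraries, so it does not show what could be found in these libraries. Alternatives were DESeq2 1.42.0, limma 3.58.1 voom, other scalings and filters, the replicate number as a block, and each library left out. Leaving out the 3 libraries with under 1000 detected genes was added after seeing the data.

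The members and lists were chosen with earlier results of these data known. Named genes are the 7 members, the 3 most abundant of each pathway list, the 2 most abundant of each marker list and the 3 genes most like each member with 10 counts in every library. Exon lengths and gene positions come from GENCODE M21 (GRCm38, the assembly that mm10 names) and promoter sequences from RefSeq (GRCm38.p6), which matched 6 of 7 members. 1 gene that this rule names is not reported here. Alox5, Lta4h, Tbxa2r, Mknk1, Ctla2a, Tmsb4x and the cell type markers given at 0 were named after their values were seen. No list was tested as a set.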

Additional observations from a re-analysis of the deposited data

Results flagged for a closer look

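In 42 groups of 5 libraries with counts, 16 held a library that stood apart from the other 4 by Dixon's criterion. A group with counts in 1 library alone is flagged by construction, so no chance rate is set beside this number. Most of the 16 are genes with counts in 1 or 2 libraries of a group. Among the members this was Pla2g4a in Tomato+ replicate 5, with 13.4 CPM and 0.513 CPM in the next library. In Tomato+ the other libraries that stood apart were replicate 1 for Acsl4 (126 CPM) and Hpgd (303 CPM), replicate 2 for Ptgir (290 CPM) and Mapk3 (264 CPM), and replicate 5 for Ptges3 (1.74 CPM) and Abcc4 (96.2 CPM). In Tomato- they were replicate 3 for Acsl4 (0.946 CPM), Cysltr2 (160 CPM) and Abcc1 (152 CPM), and replicate 5 for Ptges3 (2.59 CPM). Tomato- replicate 4 stood apart for Pla2g16 (146 CPM), Lpcat3 (35.8 CPM), Ptgir (46.9 CPM), Ltb4r1 (9.44 CPM) and Slco3a1 (0.755 CPM).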

How the results depend on the processing

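No member passed in any of the settings tried. The count of called genes was 0 in edgeR, also with other scaling, without a filter, with 10 counts in every library, with 1 library left out, with the block, and when the 3 libraries below 1000 detected genes were dropped. It was 218 with DESeq2 and 2 with limma voom (Ctla2a and Tmsb4x). The edgeR fit without a filter was unlike the main fit in its unadjusted p-values. There 1764 of 4692 genes had an edgeR unadjusted p under 0.05, against 9 of 1016 in the main fit. With 1 library left out, the log2 fold change ranged from -0.71 to -0.48 for Ptgs1, from -0.13 to 1.72 for Tbxas1, from -0.19 to 0.077 for Alox12 and from 0.32 to 1.11 for Alox5ap. The sign turned for Tbxas1 without Tomato+ replicate 2 (-0.13) and for Alox12 without Tomato+ replicate 1 (0.077) or 5 (0.030) and without Tomato- replicate 1 (0.016) or 5 (0.066). It also turned for Alox12 without a filter (0.079) and without those 3 libraries (0.082), and for Alox5ap without them (-0.047); the cause was not tested. With the replicate number as a block, log2 fold changes were -0.60 for Ptgs1, 2.75 for Tbxas1, -0.05 for Alox12 and 2.27 for Alox5ap. Same-numbered libraries deviated together with r between -0.11 and 0.12, and 2 of 5 Tomato+ libraries were most like their own number, so the numbers are not read as pairs. Counts of Tbxas1 in both groups, and of Alox5ap and Pla2g4a in Tomato-, ran from 0 or 2 to over 1000, and the part of depth in this was not tested.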
